A study of Mus musculus with 6 samples.

Results

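A set of 10 genes of the vascular endothelium and the endocardium was followed in RNA-seq libraries of the embryonic mouse heart: Pecam1, Cdh5, Kdr, Flt1, Tek, Tie1, Eng, Emcn, Klf2 and Klf4. They were taken by symbol from a fixed list that uses no measured value, although it was set with earlier results of these data known. They are 10 of the 18810 genes in the deposited table. The libraries were made from dissected atrioventricular canal (AVC) regions, which contained the mitral, tricuspid and aortic valves, at embryonic day 15.5, and there was 1 library per embryo. Of the 6 embryos, 3 carried no functional allele of the transcription factor scleraxis (Scx-/-) and 3 were wild type littermates (Scx+/+), all labelled with the strain C57BL/6. The Scx deletion was present in all cells of the embryo, the tissue was not sorted, and no agent was given. The comparison asks whether endothelial gene expression differs when the remodeling valve lacks Scx.

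The endothelium lines blood vessels, and the endocardium is the endothelial sheet that covers the valve leaflets and the inner wall of the heart. Its cells adhere to each other through Pecam1 and Cdh5 (VE-cadherin), respond to VEGF through Kdr (VEGFR2) and Flt1 (VEGFR1), and to angiopoietins through Tek (Tie2) with its partner Tie1. Eng (endoglin) is a co-receptor for ligands of the TGF-beta family, Emcn (endomucin) is a sialomucin of the endothelial surface, and Klf2 and Klf4 are zinc finger transcription factors that flowing blood induces in endothelial cells. Klf4 is also expressed by other cell types.

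The upstream promoter sequences of Klf2, Klf4, Tek and Tie1 are shown here because the expression ratios within these pairs did not overlap between genotypes. Each is the 250 bases upstream of the RefSeq transcription start on GRCm38.p6, written 5′ to 3′ on the strand of the gene. That build differs from the build of the gene positions given with the values, and no position was converted. Capitals mark matches, on either strand, to 4 motifs, which were the E-box CATCTG, the KLF motif CACCC, the ETS motif CCGGAA and the TEAD motif CATTCC.
Klf2, chr8:72318812-72319061, plus strand: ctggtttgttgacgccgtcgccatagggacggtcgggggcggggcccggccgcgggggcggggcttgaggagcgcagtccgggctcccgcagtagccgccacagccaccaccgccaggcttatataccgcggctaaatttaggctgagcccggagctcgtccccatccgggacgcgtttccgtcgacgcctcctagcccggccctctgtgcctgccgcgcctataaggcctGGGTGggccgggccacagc
Klf4, chr4:55532476-55532725, minus strand: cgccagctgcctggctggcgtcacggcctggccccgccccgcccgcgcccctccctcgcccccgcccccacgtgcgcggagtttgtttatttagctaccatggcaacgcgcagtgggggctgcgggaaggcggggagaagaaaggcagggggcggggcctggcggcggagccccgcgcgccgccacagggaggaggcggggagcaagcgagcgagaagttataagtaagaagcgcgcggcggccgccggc
Tek, chr4:94739039-94739288, plus strand: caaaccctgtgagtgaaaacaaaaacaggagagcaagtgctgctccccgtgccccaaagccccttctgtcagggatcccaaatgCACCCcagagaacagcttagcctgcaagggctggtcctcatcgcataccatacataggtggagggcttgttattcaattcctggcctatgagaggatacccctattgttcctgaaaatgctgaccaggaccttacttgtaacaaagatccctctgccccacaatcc
Tie1, chr4:118489850-118490099, minus strand: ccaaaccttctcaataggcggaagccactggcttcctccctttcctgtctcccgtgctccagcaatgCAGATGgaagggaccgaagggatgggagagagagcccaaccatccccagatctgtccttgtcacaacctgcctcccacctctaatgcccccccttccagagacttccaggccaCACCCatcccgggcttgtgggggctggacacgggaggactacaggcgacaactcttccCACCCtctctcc

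The Klf2 promoter held 1 KLF match and the Klf4 promoter held no match to any of the 4 motifs. The Tek promoter held 1 KLF match, and the Tie1 promoter held 1 E-box match and 2 KLF matches. RefSeq promoters were matched for 8 of the 10 genes, which leaves out Pecam1 and Cdh5. The E-box form CATCTG was found in 3 of the 8 (Kdr, Tie1 and Eng), and the KLF motif in 6 of 8 (all but Emcn and Klf4). The ETS motif was found in 1 (Kdr) and the TEAD motif in 0. Among 32851 mouse promoters of the same length, 14.4% held CATCTG, 52.0% the KLF motif, 12.0% the ETS motif and 12.6% the TEAD motif. Other forms of the E-box were not searched, so a promoter without a match here may still hold an E-box. These matches describe letters in the sequence and were not measured as binding.

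Values are RPKM, reads scaled to exon length and to the depth of the library, so levels can be compared between genes. Each library held between 46429983 and 68571052 reads by depth recovered from the values. Reads over the whole of Scx gave 18.6 to 82.9 RPKM in Scx-/- and 26.0 to 58.3 RPKM in Scx+/+, with the highest level in Scx-/- replicate 3. The table has no separate value for the deleted part of Scx, so the genotype could not be checked here and libraries are named by their labels. The study made its own check of the deleted exon in its samples, which is not part of the table. Xist was at 21.7 and 12.7 RPKM in replicate 2 of Scx-/- and of Scx+/+ and at the common fill-in value of the table in the other 4 libraries, while Ddx3y, a gene of the Y chromosome, had the opposite pattern. A pair of libraries, Scx-/- replicate 3 and Scx+/+ replicate 2, is treated here as a pair that stood apart. Their deviations from the mean of their genotype were correlated at r = 0.32 over the 13827 genes that averaged 1 RPKM or more, as a description. That r was the highest between any Scx-/- and any Scx+/+ library. Scx+/+ replicate 2 had 56.9% of its RPKM in 10 genes against 30.7% to 43.9% in the other libraries. Scx-/- replicate 3, at 33.8%, lay within that range. Expression was compared on the log2(RPKM + 0.1) scale by limma over all 18810 genes, and calls were made at an unadjusted p below 0.05, the threshold of the study. All log2 differences are Scx-/- minus Scx+/+ on that scale, where differences of low genes are understated.

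All 10 genes were measured above the fill-in value in all 6 libraries. Pecam1 had the highest mean level (36.2 RPKM), followed by Tek (29.3), Kdr (21.1), Cdh5 (15.5), Emcn (13.6), Tie1 (6.44), Flt1 (4.86), Eng (3.78), Klf2 (1.75) and Klf4 (1.75). Most neighbours in this order kept their rank in 6 of 6 libraries. The exceptions were Cdh5 over Emcn (3 of 6), Flt1 over Eng (5 of 6) and Klf2 over Klf4 (3 of 6). The mean log2 ratio of Cdh5 to Emcn was 0.22 ± 0.73 (SD, n = 6), and that of Klf2 to Klf4 was 0.02 ± 0.53 (SD, n = 6), so these neighbours did not differ beyond their spread. Pecam1 lay above 89.0% of the genes in the table and Klf2 and Klf4 above 36.9% and 36.8%. The receptor that transmits the VEGF signal, Kdr, was the higher of the VEGF receptors in every library, and Tek was the higher of the Tie receptors in every library.

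**Figure D1:**
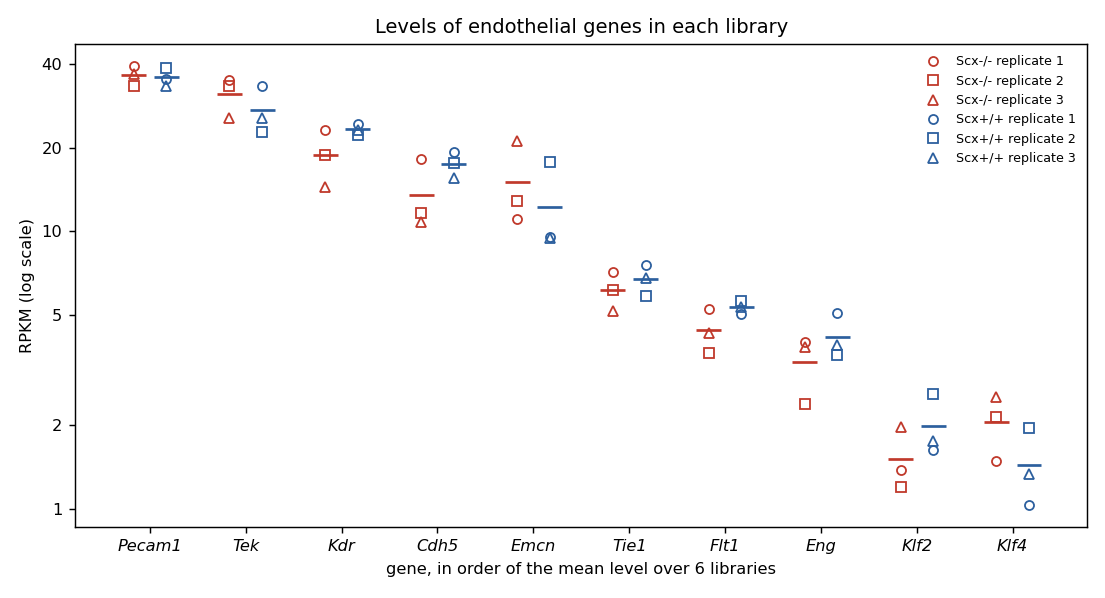
RPKM (log scale) of the 10 endothelial genes in each of the 6 libraries, ordered by mean level, with Scx-/- in red, Scx+/+ in blue, a symbol shape per replicate number, and a short line at the mean of each genotype (n = 3). The symbols of the genotypes overlap for every gene, and the mean levels run from 36.2 RPKM for Pecam1 to 1.75 RPKM for Klf4.

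None of the 10 genes was called between genotypes (0 of 10), against 3.89% of all genes (731 of 18810, of which 531 or 2.82% lay higher and 200 or 1.06% lower in Scx-/-), and the libraries of the genotypes overlapped for every member (0 of 10 without overlap, against 9.5% of all genes). After Benjamini-Hochberg adjustment limma called 0 of the 18810, and adjusted p values of the members were 0.967 to 0.996. The log2 difference was below 0 for 6 members and above 0 for 4, with a median of -0.21, where the median over all genes was 0.10 and 63.8% of genes were above 0. With 3 libraries a group, exact permutation has a smallest two-sided p of 0.1, and no member reached it. Because whole tissue was sequenced, fewer endothelial cells and less RNA per endothelial cell cannot be told apart in any of these values.

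Neither of the adhesion genes of the endothelial junction was called. Pecam1 (ENSMUSG00000020717, mm9 chr11:106515531-106611942, minus strand), the platelet endothelial adhesion molecule, was at 39.4, 33.3 and 36.7 RPKM in Scx-/- and at 35.5, 38.7 and 33.4 RPKM in Scx+/+, in the order of replicates 1 to 3 that all values follow. The lowest and the highest library were both Scx-/-, and the whole range covered a fold of 1.18. The log2 difference was 0.02 (SE 0.16, 95% confidence interval -0.33 to 0.38, limma unadjusted p = 0.878, exact permutation p = 0.8). Pecam1 was among the steadiest genes of the series, with an SD of 0.10 in log2 over the 6 libraries. Only 1.17% of the genes averaging 1 RPKM or more varied less, and the median gene had an SD of 0.31.

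Cdh5 (ENSMUSG00000031871, mm9 chr8:106625525-106668402, plus strand), the cadherin of endothelial adherens junctions, was at 18.2, 11.6 and 10.8 RPKM in Scx-/- and at 19.2, 17.6 and 15.5 RPKM in Scx+/+. Scx-/- replicates 2 and 3 lay under all Scx+/+ libraries, and Scx-/- replicate 1 lay among them. On average Scx-/- had 13.5 ± 4.03 RPKM and Scx+/+ had 17.5 ± 1.87 RPKM (± SD, 3 libraries each). The log2 difference of -0.40 (SE 0.23, 95% confidence interval -0.91 to 0.11) missed the threshold (limma unadjusted p = 0.113, exact permutation p = 0.3), and so a decrease was not detectable with RPKM as deposited. Without Scx-/- replicate 1 it was -0.63 and was called (limma unadjusted p = 0.0106, adjusted p = 1), in a fit that called 3.07% of all genes. Of the 6 fits that leave out a library, only this 1 called Cdh5, and the difference ran from -0.63 to -0.26 over them.

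In both VEGF receptors Scx-/- replicates 2 and 3 were the lowest libraries, as for Cdh5, and neither was called. Kdr (ENSMUSG00000062960, mm9 chr5:76328852-76374483, minus strand), the main signalling receptor for VEGF-A, was at 23.2, 18.8 and 14.4 RPKM in Scx-/- and at 24.4, 22.3 and 23.2 RPKM in Scx+/+. Scx-/- replicate 1 lay within the Scx+/+ range. The log2 difference was -0.33 (SE 0.20, 95% confidence interval -0.79 to 0.12, limma unadjusted p = 0.131, exact permutation p = 0.3), and it was -0.50 and called without Scx-/- replicate 1 (limma unadjusted p = 0.0321, adjusted p = 1). Without Scx-/- replicate 1, 3.07% of all genes were called. Only this 1 of the 6 fits that leave out a library called Kdr, and its difference ran from -0.50 to -0.15 over them.

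Flt1 (ENSMUSG00000029648, mm9 chr5:148373180-148537587, minus strand), the receptor that binds VEGF-A tightly and signals weakly, was at 5.24, 3.65 and 4.31 RPKM in Scx-/- and at 5.05, 5.60 and 5.32 RPKM in Scx+/+. Scx-/- replicate 1 lay between the Scx+/+ libraries, which were close together. The log2 difference was -0.28 (SE 0.22, 95% confidence interval -0.78 to 0.21, limma unadjusted p = 0.228, exact permutation p = 0.2).

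The angiopoietin receptor Tek and its partner Tie1 had differences of opposite sign, neither of them called. Tek (ENSMUSG00000006386, mm9 chr4:94405980-94541667, plus strand) was at 35.0, 33.3 and 25.5 RPKM in Scx-/- and at 33.4, 22.8 and 25.6 RPKM in Scx+/+. Replicate 1 of Scx+/+ was as high as the upper Scx-/- libraries, and the log2 difference was 0.20 (SE 0.20, 95% confidence interval -0.26 to 0.66, limma unadjusted p = 0.345). Tie1 (ENSMUSG00000033191, mm9 chr4:118143796-118162666, minus strand), which binds no angiopoietin with high affinity and modulates Tek, was at 7.14, 6.12 and 5.17 RPKM in Scx-/- and at 7.56, 5.85 and 6.81 RPKM in Scx+/+. Its genotypes were interleaved, with a log2 difference of -0.14 (SE 0.21, 95% confidence interval -0.62 to 0.34, limma unadjusted p = 0.539).

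Eng (ENSMUSG00000026814, mm9 chr2:32502115-32538189, plus strand), the co-receptor mutated in hereditary haemorrhagic telangiectasia, was at 3.98, 2.38 and 3.82 RPKM in Scx-/- and at 5.06, 3.58 and 3.89 RPKM in Scx+/+. Scx-/- replicate 2 was the lowest and Scx+/+ replicate 1 the highest library, and the remaining 4 lay close together. The log2 difference was -0.31 (SE 0.28, 95% confidence interval -0.94 to 0.32, limma unadjusted p = 0.292), and it was -0.08 without Scx-/- replicate 2 (limma unadjusted p = 0.749). Exons of Eng share 124 bases with Ak1 on the same strand and 61 bases with Fpgs on the other strand, and the strand used in counting is not given in the sources used here, so its reads may not be its own alone. The other 9 genes share no exon with a neighbour.

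Emcn (ENSMUSG00000054690, mm9 chr3:137004031-137095149, plus strand), which is abundant on venous, capillary and endocardial surfaces, was at 11.1, 12.8 and 21.1 RPKM in Scx-/- and at 9.50, 17.8 and 9.48 RPKM in Scx+/+. It varied most of the members, with an SD of 0.48 in log2 over the 6 libraries, and 77.9% of genes varied less. The high libraries were the pair that stood apart, Scx-/- replicate 3 and Scx+/+ replicate 2. The log2 difference was 0.30 (SE 0.32, 95% confidence interval -0.42 to 1.02, limma unadjusted p = 0.367), and 0.33 without that pair (SE 0.13, 95% confidence interval -0.06 to 0.71, limma unadjusted p = 0.0764). It was 0.03 without Scx-/- replicate 3 alone and 0.60 without Scx+/+ replicate 2 alone.

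The flow-induced factors were the lowest of the 10 genes. Klf2 (ENSMUSG00000055148, mm9 chr8:74842932-74845555, plus strand), needed for endocardial cells to respond to flow in the valve, was at 1.38, 1.20 and 1.97 RPKM in Scx-/- and at 1.62, 2.59 and 1.76 RPKM in Scx+/+, from 133 to 223 reads. Scx-/- replicates 1 and 2 were the lowest libraries, and the log2 difference was -0.37 (SE 0.33, 95% confidence interval -1.12 to 0.37, limma unadjusted p = 0.283). Klf4 (ENSMUSG00000003032, mm9 chr4:55540013-55545347, minus strand), its close relative, was at 1.49, 2.15 and 2.53 RPKM in Scx-/- and at 1.03, 1.95 and 1.33 RPKM in Scx+/+, from 190 to 463 reads. Scx+/+ replicate 2 lay between the Scx-/- libraries and the other Scx+/+ libraries lay under all 3 of them. The log2 difference of 0.50 (SE 0.35, 95% confidence interval -0.29 to 1.29, limma unadjusted p = 0.185, exact permutation p = 0.2) was the largest of the 10 in size.

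The scaling of the libraries bore on the VEGF receptor Kdr and on Cdh5. Deposited RPKM placed the median gene 0.10 higher in Scx-/-, and with library medians set to 0, over genes averaging 1 RPKM or more, the median over all genes was -0.00. On that scale the split of called genes moved from 531 higher and 200 lower to 281 higher (1.49%) and 365 lower (1.94%). Among the 10 endothelial genes, 2 were called, against 3.43% of all genes, and both were lower in Scx-/-. Cdh5 had a log2 difference of -0.51 (SE 0.19, limma unadjusted p = 0.0267, adjusted p = 1.00) and Kdr one of -0.44 (SE 0.17, limma unadjusted p = 0.0307, adjusted p = 1.00). The same genes were called after quantile normalization (-0.52 and -0.46, with 3.75% of all genes called), and Cdh5 alone after trends on exon length and GC were subtracted from each library (-0.48, limma unadjusted p = 0.0247, with 3.54% of 18695 genes called), where Kdr had -0.35 (limma unadjusted p = 0.0516). With library medians set to 0, 7 of the 10 were lower in Scx-/- and the median of the 10 was -0.32, where 49.4% of all genes were above 0. Pecam1 changed sign to -0.08. Without Scx-/- replicate 3 and Scx+/+ replicate 2, with RPKM as deposited, 0 of 10 were called against 8.44% of all genes.

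**Figure D2:**
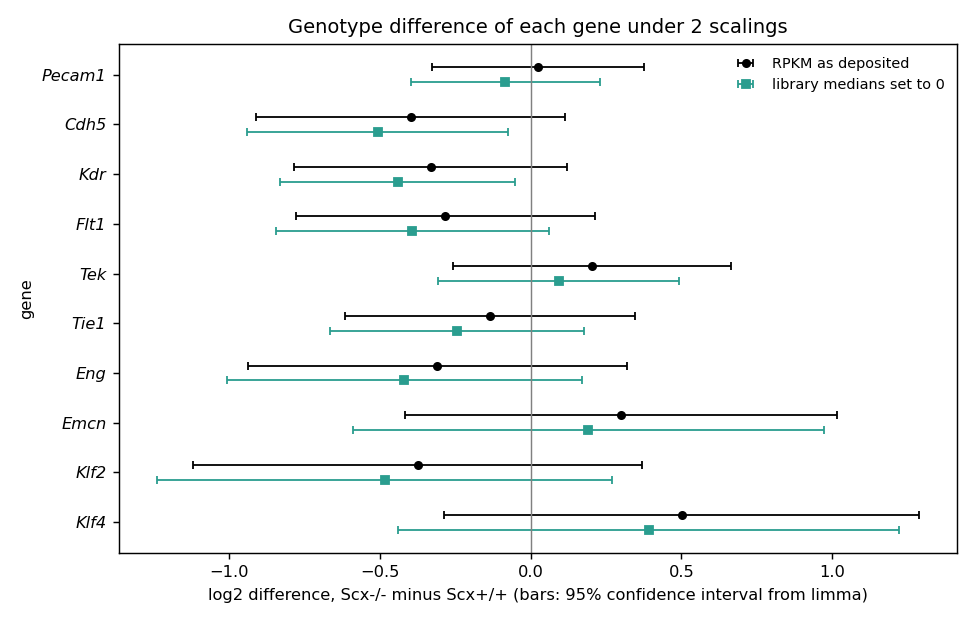
Log2 difference between genotypes (Scx-/- minus Scx+/+) of each gene with the 95% confidence interval from limma (n = 3 against 3), with RPKM as deposited (black circles) and with library medians set to 0 (green squares). As deposited, all 10 intervals include 0, and with medians set to 0 those of Cdh5 (-0.51) and Kdr (-0.44) do not.

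The members did not move together as a single block over the libraries. Scx-/- replicate 2 held the lowest value of 4 members (Pecam1, Flt1, Eng and Klf2) and Scx+/+ replicate 1 the highest of 4 (Cdh5, Kdr, Tie1 and Eng). Scx-/- replicate 3 held the lowest Cdh5, Kdr and Tie1 and the highest Emcn and Klf4. In this library Kdr lay 0.52 under its mean in log2 while Emcn lay 0.69 above its own. Hbb-y, the embryonic beta-like globin, was at 1.16 and 1.99 RPKM in Scx-/- replicate 3 and Scx+/+ replicate 2, against 49.6 and 125 RPKM in the other Scx-/- libraries and 59.2 and 80.7 RPKM in the other Scx+/+ libraries. Without this pair the log2 differences of Emcn, Klf2 and Klf4 were 0.33, -0.37 and 0.57, against 0.30, -0.37 and 0.50 with it. Leaving out Scx-/- replicate 3 alone gave 0.03, -0.57 and 0.34, and leaving out Scx+/+ replicate 2 alone gave 0.60, -0.18 and 0.73, so each of these libraries moved the values and the shifts had opposite signs.

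**Figure D3:**
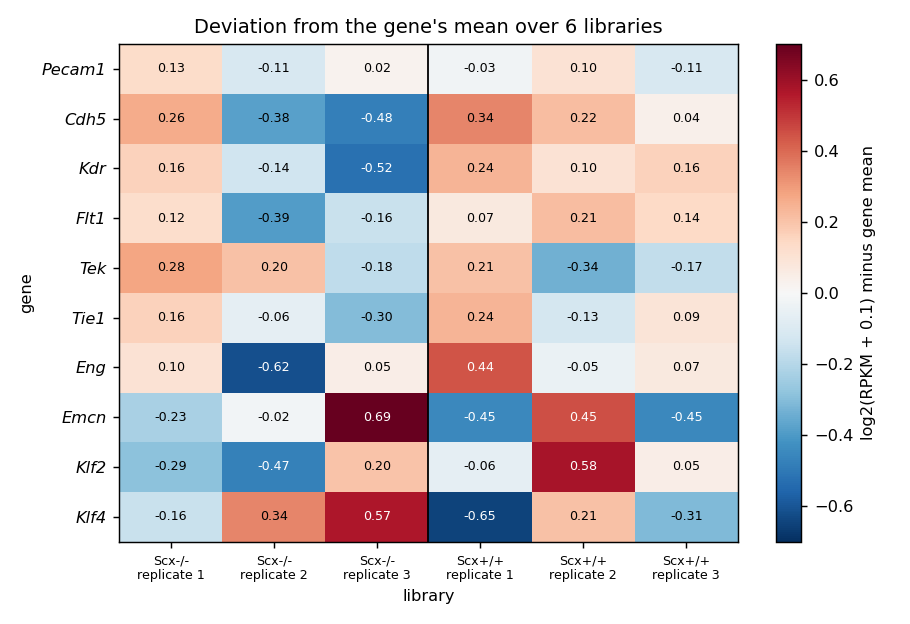
Deviation of each gene from its own mean over the 6 libraries, in log2(RPKM + 0.1), with libraries in columns, Scx-/- left of the line and Scx+/+ right of it. Red is above and blue below the mean, and Scx-/- replicate 3 joins the lowest Kdr (-0.52) with the highest Emcn (0.69).

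The mean of the 10 centred profiles was 0.05, -0.16 and -0.01 in Scx-/- and 0.04, 0.14 and -0.05 in Scx+/+. The 5 genes most like this mean profile among 13817 others averaging 1 RPKM or more were Tinagl1 (Pearson r = 0.994 over 6 libraries), Faf2 (0.993), Gm5449 (0.986), Tmem109 (0.985) and Pygm (0.985). Tinagl1 was at 5.34, 2.90 and 4.16 RPKM in Scx-/- and at 4.76, 6.11 and 3.86 RPKM in Scx+/+, lowest and highest in the same libraries as the mean profile. The points share the depth and scaling of each library, and with 6 points the best of many genes lie close to 1.

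Ratios between members of the same library were taken of RPKM + 0.1, with the geometric mean of Pecam1 and Cdh5 as the reference for 8 of them. Apart from the added 0.1, such a ratio does not depend on the scaling of its library, nor on an endothelial cell share common to both genes. Of 11 ratios, 3 separated the genotypes without overlap, each at the smallest p that an exact permutation test allows (p = 0.1, and 0.367 adjusted over the 11). Among single genes, 9.5% of all genes did not overlap. A ratio combines the differences of its genes, and no such share was taken for ratios of other genes, so the counts cannot be compared directly. The ratios share members, such as Tek and the reference genes, so they are not independent of each other. The reference was not level between genotypes, with log2 differences of -0.40 for Cdh5 and 0.02 for Pecam1. Its lower value in Scx-/- raises the difference of all 8 ratios to it by the same amount. The ratio of Klf4 to Klf2 was 1.08, 1.74 and 1.27 in Scx-/- and 0.658, 0.762 and 0.771 in Scx+/+. Thus Klf4 was the higher of the flow-induced factors in every Scx-/- library and Klf2 in every Scx+/+ library. Klf4 is also expressed by other cell types, and their part in this ratio was not tested. The difference was 0.88 in log2 and lay between 0.69 and 1.03 when any of the libraries was omitted, and it was 0.87 with the exon length and GC trend subtracted, where the genotypes again did not overlap. With 1 in place of 0.1 added to the RPKM it was 0.58, also without overlap.

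The ratio of Tie1 to Tek was 0.206, 0.186 and 0.205 in Scx-/- and 0.229, 0.259 and 0.269 in Scx+/+, so that every Scx-/- library had less Tie1 per Tek. The difference was -0.34 in log2, with a range of -0.41 to -0.29 over the libraries left out. With the exon length and GC trend subtracted it was -0.24 and the genotypes overlapped (exact permutation p = 0.2). Tek has a GC content of 47.0% and Tie1 of 56.8%.

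Tek relative to the geometric mean of Pecam1 and Cdh5, with 0.1 added to each RPKM, was 1.31, 1.69 and 1.28 in Scx-/- and 1.28, 0.875 and 1.13 in Scx+/+. This was a log2 difference of 0.39 (0.24 to 0.51 over the libraries left out), against 0.20 for Tek alone. The rest came from the lower reference in Scx-/-, where Cdh5 had a log2 difference of -0.40. Scx+/+ replicate 1 all but reached the lowest Scx-/- library, at log2 ratios of 0.35 and 0.36, and the separation depended on the form of the ratio. With the exon length and GC trend subtracted the genotypes again did not overlap (0.38, exact permutation p = 0.1). The genotypes overlapped against the arithmetic mean of Pecam1 and Cdh5 with nothing added (0.30, exact permutation p = 0.3), against the 8 receptor and surface genes (0.32, exact permutation p = 0.2) and with 1 added to the RPKM (0.37, exact permutation p = 0.2). The genotypes overlapped in the other 8 ratios, of which Flt1 to Pecam1 and Cdh5 separated against the arithmetic mean (-0.19, exact permutation p = 0.1). Emcn and Klf4 relative to Pecam1 and Cdh5 had log2 differences of 0.49 and 0.69 (exact permutation p = 0.5 and 0.3). For Kdr, Flt1, Tie1, Eng and Klf2 relative to the same genes the differences were -0.15, -0.10, 0.05, -0.12 and -0.19 (exact permutation p = 0.5 to 0.8), and for Flt1 to Kdr 0.05 (exact permutation p = 0.9).

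**Figure D4:**
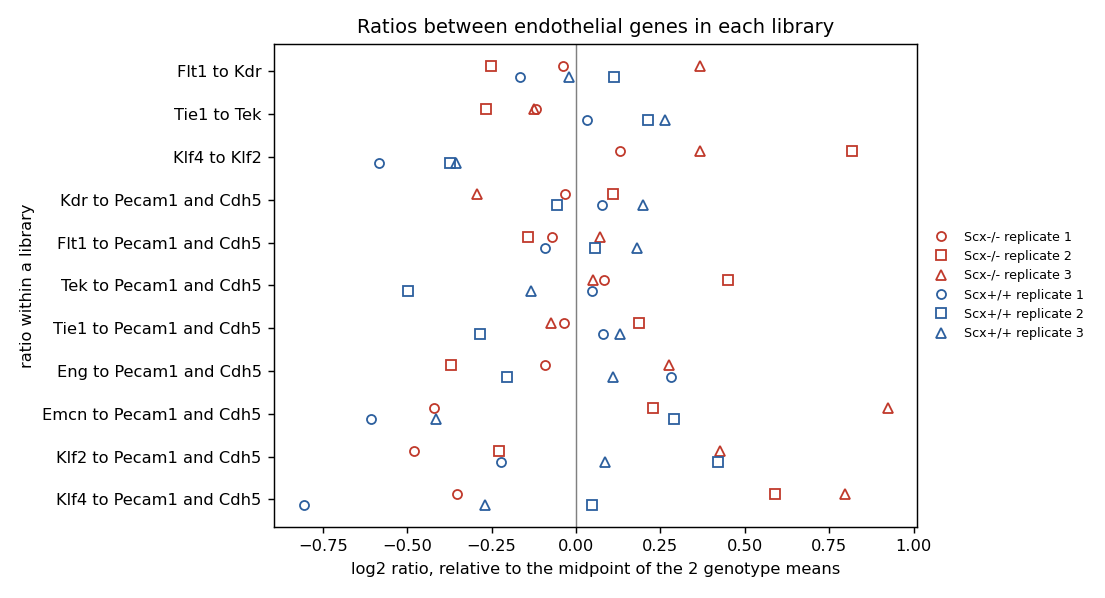
Log2 ratios between members in each library, drawn relative to the midpoint of the genotype means, with Scx-/- in red, Scx+/+ in blue and a symbol shape per replicate number. Red and blue symbols are apart for Klf4 to Klf2, Tie1 to Tek and Tek to Pecam1 and Cdh5, and they overlap for the other 8 ratios.

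The wider endothelial pathways were read from 10 lists of related genes, of which 102 identifiers were in the table. Of these, 3 were called, which is 2.94% against 3.89% of all genes, and 9 did not overlap, which is 8.82% against 9.5%. Their median log2 difference was -0.00, with 50 above 0 and 52 below. Lists of genes are described by these counts and were not tested as lists.

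The genes around the VEGF and Tie receptors were not called. None of the 8 in the list of VEGF ligands, the receptor Flt4 and the co-receptors was (median log2 difference -0.03), and the highest of them, the co-receptor Nrp1, was at 49.7, 43.2 and 40.8 RPKM in Scx-/- and at 48.0, 42.5 and 43.1 RPKM in Scx+/+, a log2 difference of -0.00. None of Angpt1, Angpt2 and Ptprb was called, and Angpt1, the ligand that activates Tek, was at 15.0, 14.7 and 8.44 RPKM in Scx-/- and at 16.1, 7.31 and 14.1 RPKM in Scx+/+. Its lowest libraries were the pair that stood apart, where Emcn was highest.

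In the endoglin and ALK1 pathway 1 of 10 genes was called. Bmpr2, the type II receptor that pairs with ALK1, was at 12.7, 11.2 and 8.92 RPKM in Scx-/- and at 16.5, 12.2 and 24.7 RPKM in Scx+/+. The genotypes overlapped at Scx-/- replicate 1 and Scx+/+ replicate 2, and the gene fell by 0.65 in log2 (SE 0.27, limma unadjusted p = 0.0388, adjusted p = 0.967). It stayed past the threshold in 1 of the 6 fits that leave out a library, the fit without Scx+/+ replicate 2 (-0.89). Without Scx+/+ replicate 3 the difference was -0.39 (limma unadjusted p = 0.153), and the call was also lost without the intensity trend (limma unadjusted p = 0.0808). The most abundant gene of the list, Smad4, the common mediator of the pathway, had a log2 difference of -0.13 (limma unadjusted p = 0.485).

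In the pathway that links flow to Klf2 and Klf4, which runs through the kinases MEKK3, MEK5 and ERK5 and is held back by the cerebral cavernous malformation (CCM) proteins, 1 of 10 genes was called. Krit1 (CCM1), which restrains this pathway in endothelial cells, was at 13.7, 12.2 and 12.5 RPKM in Scx-/- and at 10.4, 7.68 and 10.2 RPKM in Scx+/+. Every Scx-/- library lay above every Scx+/+ library, and the gene rose by 0.45 in log2 (SE 0.19, limma unadjusted p = 0.0426, adjusted p = 0.967). It stayed past the threshold in 2 of the 6 fits that leave out a library (those without Scx+/+ replicate 1 or 3), and missed it at 0.34 with library medians set to 0 (limma unadjusted p = 0.0887). The highest gene of the list, Mef2a, a transcription factor downstream of ERK5, had a log2 difference of 0.00 (limma unadjusted p = 0.977). Among 9 other genes that respond to shear stress none was called, and the highest, the leukocyte adhesion receptor Vcam1, had a log2 difference of 0.16 (limma unadjusted p = 0.353). The 11 other Kruppel-like factors held no called gene, and Klf6, the highest of them, was steady at 34.7 to 36.2 RPKM in Scx-/- and 32.6 to 35.3 RPKM in Scx+/+.

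Among 9 arterial and lymphatic endothelial genes 1 was called. Efnb2 (ephrin-B2), the arterial partner of the venous receptor Ephb4, was at 6.58, 5.41 and 5.53 RPKM in Scx-/- and at 7.72, 8.09 and 8.45 RPKM in Scx+/+. The genotypes did not overlap, and the gene fell by 0.47 in log2 (SE 0.19, limma unadjusted p = 0.0342, adjusted p = 0.967). It was past the threshold in 3 of the 6 fits that leave out a library, those without Scx-/- replicate 1 or Scx+/+ replicate 1 or 2, and it missed it with the sex of the embryo as a covariate (limma unadjusted p = 0.0556) and without the pair of libraries that stood apart (limma unadjusted p = 0.0696). Gja5, the gap junction gene with the highest level of this list, had a log2 difference of 0.37 (limma unadjusted p = 0.302), which ranged from 0.08 without Scx-/- replicate 1 (limma unadjusted p = 0.823) to 0.77 without Scx-/- replicate 3 (limma unadjusted p = 0.0240).

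The remaining lists held no called gene. In 19 identifiers of other endothelial junction and surface genes the median log2 difference was 0.01, and Cd34, the highest, was at 71.4, 60.8 and 87.1 RPKM in Scx-/- and at 53.3, 80.6 and 57.4 RPKM in Scx+/+. In 15 endothelial transcription factors the median was -0.03, and Ets1, the highest, had a log2 difference of -0.03. In 9 endocardial and valve endothelial genes the median was -0.15, and Npr3, the clearance receptor for natriuretic peptides and the highest of the list, was at 18.8, 16.6 and 13.6 RPKM in Scx-/- and at 21.5, 15.3 and 17.4 RPKM in Scx+/+.

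Other cell types of the dissected region were present beside the endothelial genes. The 13 cardiomyocyte markers, led by the ventricular myosin light chain Myl2 at 5910 to 11634 RPKM, summed to 20331 to 29040 RPKM in Scx-/- and 18141 to 31567 RPKM in Scx+/+, far above the endothelial genes, and 1 of them (Ryr2) was called lower. The 10 markers of valve and cushion mesenchyme, led by the matricellular gene Postn at 161 to 387 RPKM, summed to 673 to 885 RPKM in Scx-/- and 585 to 661 RPKM in Scx+/+ without overlap, and 1 of them (Lum) was called higher. Of these markers 5 were above 0 and 5 below, with a median log2 difference of 0.01, and Col1a1 was lower in every Scx-/- library (-0.50). The 7 epicardial markers summed to 30.7 to 35.7 RPKM in Scx-/- and 23.7 to 25.3 RPKM in Scx+/+, also without overlap, with 3 called higher (Upk1b, Aldh1a2 and Tcf21, the most abundant). The 6 smooth muscle markers, led by Acta2, summed to 485 to 680 RPKM in Scx-/- and 458 to 551 RPKM in Scx+/+. Of the erythroid markers 8 of 10 were listed, led by Hba-a1, and they summed to 7225 to 11088 RPKM in Scx-/- and 6207 to 10838 RPKM in Scx+/+. The 9 macrophage markers, led by C1qa, summed to 12.3 to 20.2 RPKM in Scx-/- and 11.6 to 17.4 RPKM in Scx+/+, with Cd68 called higher. Of the platelet markers 4 of 6 were listed, led by Pf4, and they summed to 5.23 to 6.48 RPKM in Scx-/- and 5.58 to 12.1 RPKM in Scx+/+. Markers with a fill-in value in any library were 1 erythroid and 1 macrophage gene. The part of these cell types in the values of the 10 endothelial genes was not tested.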

How the data were processed

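RNA from AVC regions of 3 Scx-/- and 3 Scx+/+ embryos was sequenced, 1 library each. The authors aligned reads to mm9 with TopHat 1.4.1, counted reads over Ensembl exons with easyRNASeq and deposited RPKM, with genes under about 50 reads in every library removed and low values replaced by a common value. RPKM is scaled to the total reads of a library, so a few very abundant genes can shift the rest. Per the labels the submitters' processing notes name the build mm9.

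Gene symbols, positions, exon lengths and GC content came from GENCODE M1 on the same build, which held 18695 of the 18810 identifiers. Read depth was solved from RPKM and exon length, with 98.5% to 98.6% of the values used coming out as whole reads within 0.1 read, and no count test was run. limma 3.58.1 (R 4.3.3) with an intensity trend was fitted to log2(RPKM + 0.1) without covariates, and p values were adjusted by Benjamini-Hochberg over 18810 genes. Single values and ratios were compared by exact permutation tests, two-sided. Python 3.11.15 with numpy 2.4.6, pandas 2.3.3 and matplotlib 3.10.9 did the rest. The fit was tested on simulated data, in which 200 genes averaging 1 RPKM or more were changed and genes varied independently of each other. At an unadjusted p below 0.05 limma called 57% of 1.5-fold, 79.5% of 2-fold and 97.5% of 4-fold changes. After adjustment it called 0%, 0% and 74.5% of them, so changes of 2-fold or less would be missed by the adjusted threshold.

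Named are the 10 members, the called genes and the highest gene of each related list, the 5 genes most like the mean profile, and the highest gene of each list of another cell type. Scx, Xist, Ddx3y, Hbb-y, Lum, Col1a1, Bmp10, Ryr2, Upk1b, Aldh1a2, Cd68 and the non-overlapping genes in the closing section were added after their values were seen. The members and lists were chosen with earlier results of these data known. Alternatives were pseudocounts of 0.01 and 1, genes averaging 1 RPKM or more, no trend, one-way ANOVA on RPKM and on log2 values (the study names one-way ANOVA without the scale), quantile normalization, library medians set to 0, splines on exon length and on GC content (5 degrees of freedom each) subtracted from each library, omission of each library, and a block for the replicate number. Added after seeing the data were the fit without both libraries that stood apart, the sex of the embryo (Xist above 1 RPKM) as a covariate, the ratios with the spline trend removed, and the ratios of RPKM with nothing added against the arithmetic mean of Pecam1 and Cdh5. Promoters came from RefSeq (GRCm38.p6), and protein sequences were not used here. Embryos are separate animals, but the litters are not given in the sources used here.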

Additional observations from a re-analysis of the deposited data

How the results depend on the processing

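Of the 10 genes, 9 kept the sign of their log2 difference in all 18 alternative fits, and Pecam1 kept it in 13 of 18. Some came close to 0. Tie1 ran from -0.25 to -0.019, Emcn from 0.028 to 0.60, Eng from -0.51 to -0.080, Tek from 0.063 to 0.36, Klf2 from -0.57 to -0.18, Kdr from -0.50 to -0.15, Flt1 from -0.41 to -0.16, Cdh5 from -0.63 to -0.25 and Klf4 from 0.30 to 0.73. Pecam1 reversed to -0.12 with quantile normalization, -0.085 with library medians set to 0 and -0.071 with the exon length and GC trend removed, and ranged from -0.032 to 0.088 with 1 library left out. The number of members called was 0 as reported, 2 with quantile normalization, 2 with library medians set to 0, 1 with the exon length and GC trend removed and 0 to 2 with 1 library left out, where only the fit without Scx-/- replicate 1 gave 2. The number of related genes called was 3 as reported, 6 with ANOVA on RPKM, 6 with ANOVA on log2 values, 5 with quantile normalization, 5 with library medians set to 0, 6 with the exon length and GC trend removed and 1 to 3 with 1 library left out. These related counts are out of 102 identifiers. Over all 18810 genes 731 were called as reported, 848 with ANOVA on RPKM and 865 with ANOVA on log2 values. With quantile normalization 705 were called, 646 with library medians set to 0, and 661 of 18695 with the exon length and GC trend removed. Without both libraries that stood apart 1587 were called, and 539 to 1549 with 1 library left out, the highest without Scx+/+ replicate 2. Adjusted p values were past 0.05 for 1 gene with ANOVA on log2 values and for 0 genes in every other fit.

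Same-numbered libraries did not deviate together (r = 0.09, -0.22 and -0.19), so the numbers were not taken as pairs. With the replicate block 573 genes were called over all genes, 1 of the related genes and 0 of the members. The related gene was Bmp10 (-0.73, limma unadjusted p = 0.0188), while Bmpr2, Krit1 and Efnb2 missed the threshold (limma unadjusted p = 0.0603, 0.0633 and 0.0712).

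Small differences changed sign as follows. Angpt1 was -0.072 with quantile normalization, -0.057 with library medians set to 0, -0.090 with the exon length and GC trend removed and -0.023 in the 4 libraries left without the pair that stood apart (-0.29 to 0.32 with 1 library left out). In the same order Mef2a was -0.13, -0.10, -0.078 and -0.019, and -0.0041 with ANOVA on RPKM (-0.057 to 0.12). Klf6 was -0.079, -0.043 and -0.076 in the first 3 of these. Nrp1 was 0.0022 with ANOVA on RPKM and 0.028 in the 4 libraries (-0.082 to 0.061), and Ets1 0.059 in the 4 libraries (-0.10 to 0.062). Among ratios, Tie1 to Pecam1 and Cdh5 was -0.019 against the 8 receptor and surface genes, -0.040 against the arithmetic mean with nothing added and -0.029 in the 4 libraries (-0.078 to 0.13), Flt1 to Kdr was -0.052 in the 4 libraries (-0.12 to 0.19), and Flt1 to Pecam1 and Cdh5 was 0.054 with the exon length and GC trend removed. Klf2 and Eng to Pecam1 and Cdh5 ranged from -0.45 to 0.0052 and from -0.29 to 0.030 with 1 library left out. The cause of these changes was not tested. Among the 10 genes Klf2 had the fewest reads (133 to 223).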

Other observations

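Of the 102 related identifiers, 9 did not overlap between genotypes (8.82%, against 9.5% of all genes), and 7 of these were not called by limma. They were singled out after their values were seen. Dll4, a Notch ligand of arterial endothelium and endocardium, was at 1.11, 1.21 and 1.08 RPKM in Scx-/- and at 2.03, 1.90 and 1.62 RPKM in Scx+/+, a log2 difference of -0.66 (SE 0.29, limma unadjusted p = 0.0509, adjusted p = 0.967). The study, which used one-way ANOVA, already reports Dll4 as significantly decreased in Scx-/-. Nr2f2, a transcription factor of veins, was at 1.17, 1.48 and 1.03 RPKM in Scx-/- and at 1.72, 1.68 and 1.98 RPKM in Scx+/+ (-0.52, limma unadjusted p = 0.115). The values of Vwf, Nrp2, Heg1 and Mef2d were also below those of Scx+/+ in every Scx-/- library, with log2 differences of -0.43, -0.33, -0.28 and -0.46, and limma unadjusted p of 0.271, 0.243, 0.153 and 0.108. Heg1, the endothelial receptor to which the protein product of Krit1 binds, was at 8.74, 7.16 and 8.18 RPKM in Scx-/- and at 9.45, 9.70 and 9.97 RPKM in Scx+/+. Hapln1, a hyaluronan link protein, was at 2.60, 3.28 and 2.37 RPKM in Scx-/- and at 2.25, 2.09 and 2.16 RPKM in Scx+/+ (0.32, limma unadjusted p = 0.241).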
